A study of Mus musculus with 10 samples.

Results

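The blood-testis barrier is built by junctions between neighbouring Sertoli cells, and 9 genes that encode its junction proteins are described here across the cell populations of the mouse testis. The members were chosen by name as known components of the barrier, and are Cldn3, Cldn11, Ocln, Jam2, Jam3, F11r, Tjp1, Gja1 and Cdh2. The rule uses no measured value, but the choice was made with earlier results of these data known. All 9 were found among the 28125 genes of the scRNA-seq matrix and among the 30670 genes of the scATAC-seq matrix. Each matrix holds 1 value per gene for each of 13 cell populations.

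Nuclei came from whole testes. Wild-type mice were sampled at 11, 17 and 25 dpp (days post partum), and both Cre/+ and Nfya-CKO mice at 8 weeks, and RNA and accessible chromatin were read together, with 1 library per condition and assay. In Nfya-CKO mice, made on a C57BL/6J background, the floxed Nfya gene, which encodes the subunit of NF-Y that contacts CCAAT, is cut by Cre driven from Stra8, a gene of germ cells that approach meiosis, so Sertoli cells are not the target of the deletion, and Cre/+ mice carry the Cre allele alone. The authors sorted the cells into undifferentiated and differentiating spermatogonia (undiff. SpG and diff. SpG), preleptotene spermatocytes (pL), 2 overlapping groups of early prophase (eL/L/Z and L/Z/eP), mid to late pachytene (mP/lP), diplotene (D), round spermatids (RS), elongating spermatids (ES), spermatogonia carrying the label Nfya-CKO, Sertoli cells, other somatic cells and a small population named unknown. Nfya RNA was 1.11 UMIs per 10000 in the spermatogonia labelled Nfya-CKO and 0.456 in undiff. SpG, higher and not lower, so the former are called by their label throughout, and since the matrix does not separate the deleted exons from the rest of the gene, this does not check the deletion. Of 18 Sertoli markers, 14 were at least as high in Sertoli cells as in other somatic cells, among them Sox9 with 10.7 and 3.54, while Clu, Amhr2, Tsx and Rhox5 were at 268%, 201%, 799% and 107% of their Sertoli level in other somatic cells. Since each matrix value pools the libraries, no replicate spread can be attached to it, values are compared by size alone, and neighbours in an order of levels cannot be said to differ.

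Sertoli cells surround the germ cells, and the barrier between them divides the seminiferous epithelium into a basal compartment, where spermatogonia and preleptotene spermatocytes lie, and an adluminal one, which spermatocytes enter as they pass into leptonema and zygonema. Its tight junctions are strands of claudins with occludin and junctional adhesion molecules, tied to actin by scaffold proteins such as ZO-1. Gap junctions of connexin 43 and adherens junctions of N-cadherin lie in the same belt, the basal ectoplasmic specialization.

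The promoters of 3 members are shown first because they hold CCAAT, the sequence that NF-Y binds, and because F11r and Cldn11 also have the widest spans of RNA level over the 13 populations. They were read from RefSeq promoter windows on GRCm38.p6, from 250 bases before to 50 bases after a start, and are written 5′ to 3′ on the strand of the gene, with CCAAT on either strand (read as ATTGG on the other) in capitals. The window of F11r is chr1:171437311-171437610 on the plus strand, that of Cldn11 is chr3:31149670-31149969 on the plus strand, and the one of the 2 windows of Ocln that holds the sequence is chr13:100552449-100552748 on the minus strand.
F11r: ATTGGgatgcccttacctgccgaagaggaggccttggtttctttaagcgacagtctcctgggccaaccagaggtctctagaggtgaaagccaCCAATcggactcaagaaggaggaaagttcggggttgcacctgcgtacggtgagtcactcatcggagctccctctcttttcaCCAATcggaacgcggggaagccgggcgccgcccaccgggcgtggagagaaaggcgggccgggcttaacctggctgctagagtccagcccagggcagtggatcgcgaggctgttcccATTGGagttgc
Cldn11: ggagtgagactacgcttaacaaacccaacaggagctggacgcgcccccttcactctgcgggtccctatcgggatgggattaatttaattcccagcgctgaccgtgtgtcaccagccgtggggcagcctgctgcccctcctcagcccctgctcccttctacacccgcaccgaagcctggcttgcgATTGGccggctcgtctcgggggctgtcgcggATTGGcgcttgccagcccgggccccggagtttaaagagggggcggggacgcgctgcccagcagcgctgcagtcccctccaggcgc
Ocln: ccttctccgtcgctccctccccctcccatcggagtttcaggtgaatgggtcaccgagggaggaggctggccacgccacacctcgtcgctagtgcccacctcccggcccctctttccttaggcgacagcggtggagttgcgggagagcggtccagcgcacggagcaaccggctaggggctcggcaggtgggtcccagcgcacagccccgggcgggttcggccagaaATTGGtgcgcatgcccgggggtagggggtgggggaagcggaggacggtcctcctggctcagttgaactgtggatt

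In the F11r window, CCAAT began 250, 158 and 77 bases before the start and 39 bases after it, those at 158 and 77 on the gene's own strand. In Cldn11 both matches lay close to the start, 66 and 35 bases before it, and in Ocln the single match lay 25 bases before it, all on the opposite strand. Windows were at hand for 6 members, and 3 of these 6 held CCAAT, beside 41.1% of the 27025 genes in the table. No CCAAT stood in the windows of Cldn3, Tjp1 and Gja1, and Jam2, Jam3 and Cdh2 had no entry. The Tjp1 window, chr7:65371195-65371494 on the minus strand, belongs to a start inside the gene, whose span ends at 65527850. A box bound by Sp1-type factors, GGGCGG, was in the windows of 5 of the 6 members, all but Gja1, against 38.2% of genes. In the 150 bases before the start alone it was in 3 of the 6, against 28.6% of windows. The windows of those 5 members were 60.3% to 68% G or C, beside a median of 52.7% over all windows. The GATA-type box searched for was AGATAA, which occurred in Gja1 alone, against 12.7% of genes. A SOX-type box with the letters AACAAT, found in 12.2% of genes, was in none of the 6 windows. The same held for the TATA box, written TATAAA, which 15.7% of genes have. All motifs were searched on both strands, and the matches in these windows do not overlap one another. A match is a run of letters and does not show that a factor sits there.

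Sertoli cells held the highest RNA level of 8 of the 9 members, all but Cldn3, where 10.6% of the 15126 genes with a mean of at least 0.05 were highest there. Of the 3265 Sertoli cells, 2866 came from 11 dpp and only 2 from Cre/+ mice. The Sertoli levels are thus mainly those at 11 dpp and not those of the adult. The claudin Cldn11, the JAM family member Jam2 and the connexin Gja1 were at 4.80% to 5.46% of their Sertoli level in undifferentiated spermatogonia. Tjp1, Jam3, Ocln, F11r and Cdh2 were at 22.5% to 78.2% of their Sertoli level in the same cells. These 5 stood above the highest of 14 Sertoli markers there, 10.2%, as did 97.5% of genes, so this is the ordinary case. All levels below are mean UMIs per 10000 UMIs of a cell. They can be compared between populations for a gene, but not between genes, since they are not scaled by transcript length.

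**Figure D1:**
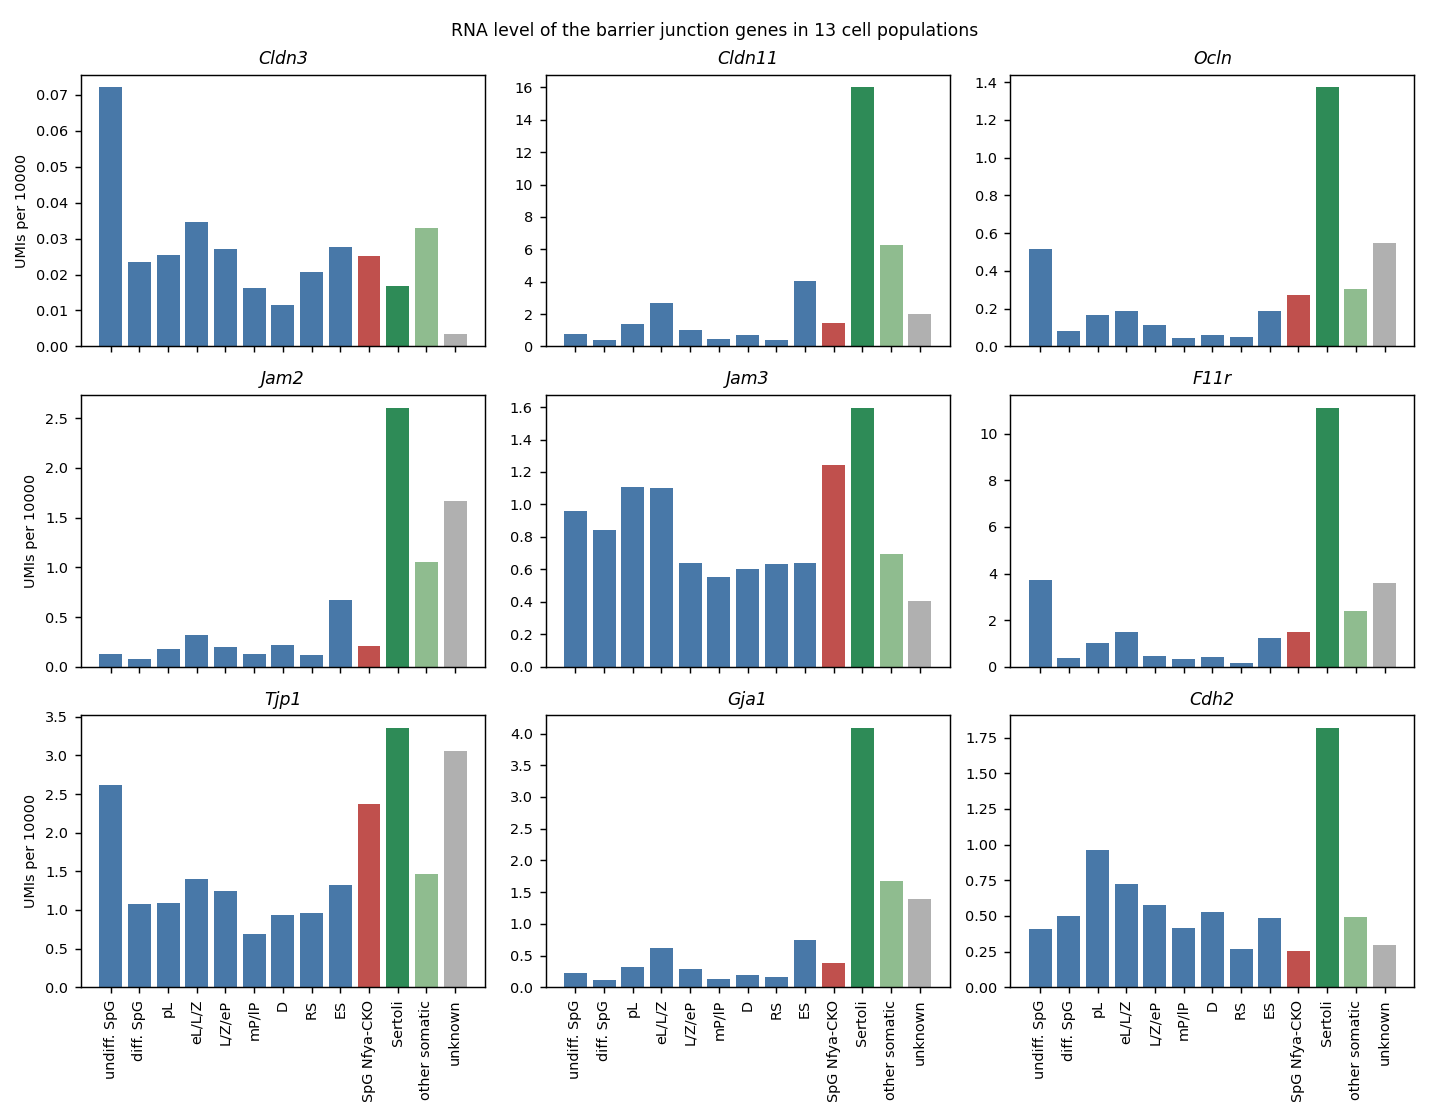
RNA level of each junction gene (vertical axis, UMIs per 10000, a separate scale from 0 in each panel) in the 13 populations, with 1 bar per population and no error bar because each is a single pooled value. The Sertoli bar (dark green) is the tallest in 8 of the 9 panels, while Cldn3 peaks in undiff. SpG at 0.0721.

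Cldn11 (chr3:31149920-31164326 on GRCm38), the claudin that forms the strands of the Sertoli tight junction, reached 16.0 in Sertoli cells, 6.29 in other somatic cells and 2.03 in the population named unknown. In germ cells it was 0.787 in undiff. SpG, 0.405 in diff. SpG, 1.41 in pL, 2.65 in eL/L/Z, 1.0 in L/Z/eP, 0.436 in mP/lP, 0.691 in D, 0.370 in RS and 4.01 in ES, and the spermatogonia labelled Nfya-CKO had 1.47. The Sertoli level was thus 3.98-fold that of ES, the highest germ cell population, and 20.3-fold that of undiff. SpG.

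Cldn3 (chr5:134986214-134987476), a claudin known from newly formed barrier junctions, was scarce everywhere. It stood at 0.0721 in undiff. SpG, 0.0346 in eL/L/Z, 0.0331 in other somatic cells and 0.0167 in Sertoli cells, with the other germ cell populations between 0.0115 in D and 0.0277 in ES. The spermatogonia labelled Nfya-CKO had 0.0252. Expressed in UMIs of cells of median depth, the Sertoli value equals 59.4 UMIs over 3265 cells and the undiff. SpG value 86.5 UMIs over 1292 cells, and the value of 0.00339 in the population named unknown lies under that of 1 UMI (0.0213). The order of the populations is therefore that of a small number of molecules, and Cldn3 fell below the minimum mean of 0.05 in all 4 RNA comparisons.

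Ocln (chr13:100496504-100552718) encodes occludin, a membrane protein of the tight junction strands. Its level was 1.37 in Sertoli cells, 0.549 in the population named unknown, 0.518 in undiff. SpG and 0.306 in other somatic cells. From undiff. SpG it was lower in every other germ cell population, with 0.0826 in diff. SpG, 0.166 in pL, 0.188 in eL/L/Z, 0.116 in L/Z/eP, 0.0445 in mP/lP, 0.0598 in D, 0.0478 in RS and 0.185 in ES, and the spermatogonia labelled Nfya-CKO had 0.272. Undifferentiated spermatogonia thus carried 37.8% of the Sertoli level and differentiating spermatogonia 6.02%.

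F11r (chr1:171437561-171464593), which encodes the adhesion molecule JAM-A, shared with Ocln the high level in undiff. SpG and the low one in diff. SpG. Levels of 11.1 in Sertoli cells, 3.70 in undiff. SpG, 3.58 in the population named unknown and 2.40 in other somatic cells contrasted with 0.386 in diff. SpG. Further along, F11r had 1.03 in pL, 1.51 in eL/L/Z, 0.483 in L/Z/eP, 0.327 in mP/lP, 0.401 in D, 0.171 in RS and 1.23 in ES, and 1.48 in the spermatogonia labelled Nfya-CKO. Its 21.7-fold span over the 9 control germ cell populations was the widest among the members, ahead of Ocln with 11.6-fold.

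Jam2 (chr16:84774123-84826380), which encodes JAM-B, was highest in Sertoli cells at 2.60, then in the population named unknown at 1.67 and in other somatic cells at 1.05. Germ cells lay lower, with 0.125 in undiff. SpG, 0.0762 in diff. SpG, 0.184 in pL, 0.320 in eL/L/Z, 0.199 in L/Z/eP, 0.124 in mP/lP, 0.224 in D, 0.116 in RS and 0.675 in ES, and 0.210 in the spermatogonia labelled Nfya-CKO. ES again was the highest germ cell population, at 25.9% of the Sertoli level. JAM-B is known from endothelial cells too, and the population named unknown is the one with endothelial markers, whose summed level was 33.2 there and at most 1.71 in the other 12 populations.

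Jam3 (chr9:27097384-27155421), the gene of JAM-C, which is known from spermatids as well as from Sertoli cells, had the flattest profile of the 9 genes over the control germ cells. It was 1.59 in Sertoli cells, 1.24 in the spermatogonia labelled Nfya-CKO, 1.11 in pL, 1.10 in eL/L/Z, 0.957 in undiff. SpG and 0.845 in diff. SpG. From L/Z/eP on it lay between 0.554 in mP/lP and 0.642 in L/Z/eP, with 0.605 in D, 0.636 in RS and 0.639 in ES, and other somatic cells had 0.694 and the population named unknown 0.402. The span over the control germ cell populations was 2.0-fold. Jam3 in ES (40.1% of the Sertoli level) was level with RS (39.9%), unlike Cldn11, Jam2, Gja1, F11r and Ocln, which were higher in ES.

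Tjp1 (chr7:65296165-65527850) encodes ZO-1, the scaffold that links tight junction proteins to actin and is not particular to one epithelium. Its level was 3.35 in Sertoli cells, 3.06 in the population named unknown, 2.62 in undiff. SpG and 2.38 in the spermatogonia labelled Nfya-CKO. The remaining populations ranged from 0.684 in mP/lP to 1.46 in other somatic cells, with 1.08 in diff. SpG, 1.10 in pL, 1.41 in eL/L/Z, 0.929 in D, 0.963 in RS and 1.32 in ES, and L/Z/eP between pL and ES. Of the 8 members that peaked in Sertoli cells, Tjp1 had the smallest lead over the highest germ cell population, 1.28-fold.

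Gja1 (chr10:56377300-56390419) encodes connexin 43, the main gap junction protein between Sertoli cells and towards germ cells. It reached 4.08 in Sertoli cells, 1.67 in other somatic cells and 1.39 in the population named unknown, beside 0.749 in ES and 0.612 in eL/L/Z. In the other germ cell populations it was 0.223 in undiff. SpG, 0.111 in diff. SpG, 0.326 in pL, 0.283 in L/Z/eP, 0.122 in mP/lP, 0.196 in D and 0.167 in RS, and 0.377 in the spermatogonia labelled Nfya-CKO. Among the 8 members that peaked in Sertoli cells, its lead over the highest germ cell population was the greatest, 5.45-fold.

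Cdh2 encodes N-cadherin, the adherens junction protein of the ectoplasmic specialization. Sertoli cells had 1.82, and the next population was pL with 0.960, followed by eL/L/Z with 0.725, L/Z/eP with 0.579, D with 0.530 and diff. SpG with 0.497. The remaining values were 0.490 in other somatic cells, 0.488 in ES, 0.413 in mP/lP, 0.409 in undiff. SpG, 0.299 in the population named unknown, 0.270 in RS and 0.257 in the spermatogonia labelled Nfya-CKO. Unlike Ocln, F11r and Tjp1, Cdh2 was higher in diff. SpG and pL than in undiff. SpG.

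Transcripts of one cell type can appear at a low level in the wells of another, so the members were set beside 18 Sertoli marker genes on the same scale, the percent of the Sertoli level. In undiff. SpG the median marker stood at 6.34%, Sox9 at 4.96%. Cldn11 at 4.92%, Jam2 at 4.80% and Gja1 at 5.46% lay among them, whereas Cdh2 was at 22.5%, F11r at 33.3%, Ocln at 37.8%, Jam3 at 60.0% and Tjp1 at 78.2%. The highest marker was Tsx, at 49.3%, which is more abundant in other somatic cells than in Sertoli cells. Tjp1 and Jam3, and the scarce Cldn3, stood above every marker, as did 86.3% of the 15126 genes. Over the 14 markers at least as high in Sertoli cells as in other somatic cells, a choice made after seeing the values, the highest was Ctsl at 10.2%, and Ocln, F11r and Cdh2 stood above it too, which makes 6 members, where 97.5% of genes did. To stand above the markers is thus the ordinary case for a gene, and the counts say nothing particular of these members.

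**Figure D2:**
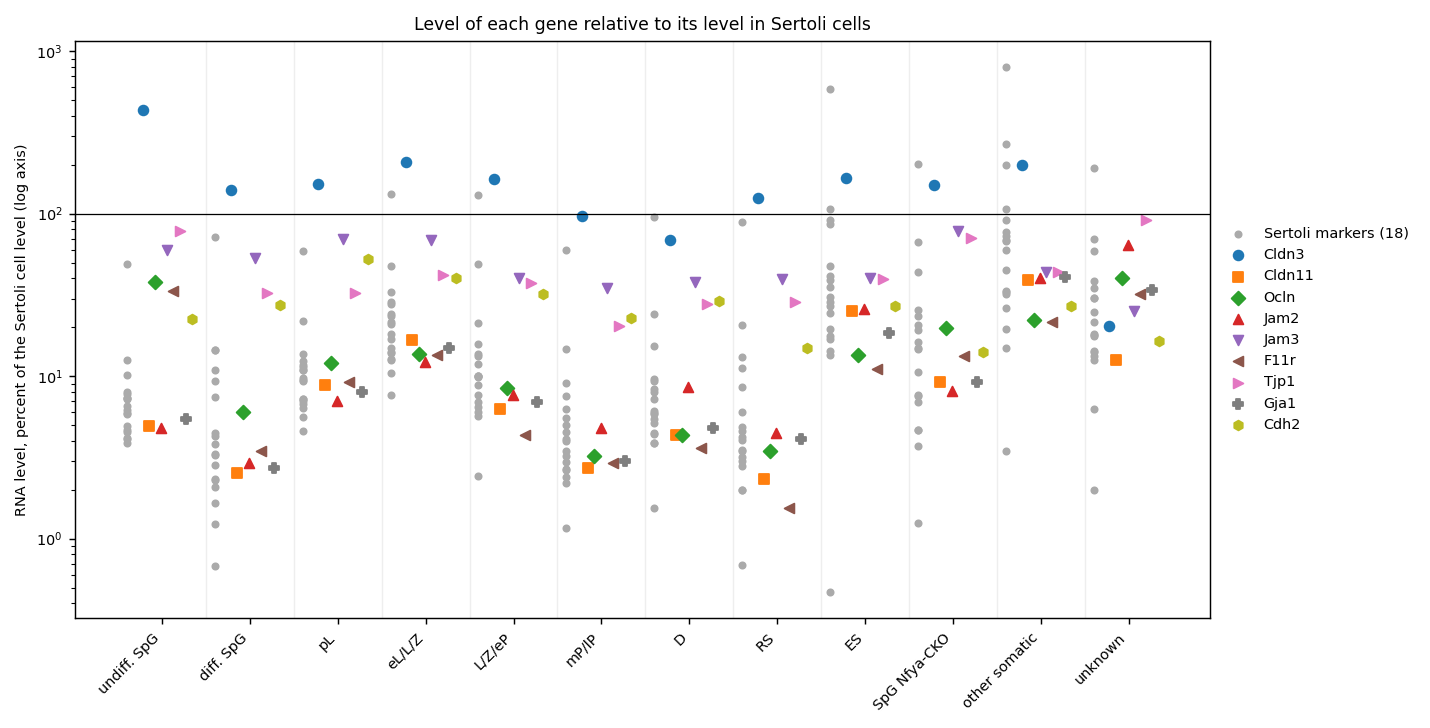
RNA level of each junction gene (coloured symbols) and of 18 Sertoli marker genes (grey) as a percent of the level in Sertoli cells (log axis, line at 100) in the other 12 populations, 1 symbol per gene. In undiff. SpG, Cldn11, Jam2 and Gja1 sit among the grey symbols near the marker median of 6.34%, while Tjp1 at 78.2% and Jam3 at 60.0% sit above all of them.

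In later germ cells fewer members stood above all 18 markers. They were Cldn3 and Jam3 in pL, none in D, and Cldn3 alone in the other 5 populations from diff. SpG to RS, while 49.5% to 79.7% of genes did so in these 7. Above the 14 markers, Tjp1, Jam3, Cdh2 and the scarce Cldn3 stood in all 7 control germ cell populations from diff. SpG to RS, as did 93.1% to 96.4% of genes, with Jam3 between 34.7% in mP/lP and 69.6% in pL of its Sertoli level. Ocln and F11r did not, since in diff. SpG they were at 6.02% and 3.48% beside a highest such marker of 9.31%. In ES the markers themselves were high, with a median of 29.6% over all 18. Their summed level was 66.8 in ES and 7.64 in RS, with Clu, a secreted Sertoli product, at 31.3 and 2.90. Cldn11 (4.01 in ES and 0.370 in RS), Jam2 (0.675 and 0.116) and Gja1 (0.749 and 0.167) moved together with them. So did F11r (1.23 and 0.171) and Ocln (0.185 and 0.0478). Cdh2 (0.488 and 0.270) and Tjp1 (1.32 and 0.963) were higher in ES by less, and Jam3 (0.639 and 0.636) was level. The part of Sertoli RNA in the ES levels was not tested. Only Cldn3 was above the 14 markers in ES, beside 79.6% of genes. The same markers were also higher in eL/L/Z (median 19.6% over all 18) than in pL (9.65%).

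Against other somatic cells, 8 of the 8 members rated were at least 2-fold higher in Sertoli cells and none was lower, where 6.80% of 13697 genes were higher and 17.8% lower. The members' median log2 ratio was 1.29, beside -0.16 over all genes. F11r, with 11.1 against 2.40, had a log2 ratio of 2.16, Ocln (1.37 against 0.306) 1.86 and Cdh2 (1.82 against 0.490) 1.70. Jam3, with 1.59 against 0.694, was the lowest of the 8 at 1.09. This population is no clean contrast to Sertoli cells. Its Leydig markers summed to 228 (1.19 in Sertoli cells), but its Sertoli markers summed to 155, beside 148 in Sertoli cells, of which Clu alone gave 91.5 and 34.1, and the median marker was at 63.6% of its Sertoli level. Of its 1942 cells with both assays 1039, or 53.5% (95% interval 51.3 to 55.7), were Sertoli cells by the authors' scATAC-seq names. The Nfya-CKO library carried that share, with 855 of 1217 cells (70.3%), and without it 184 of 725 (25.4%) were so named. It was also drawn from other mice, since 4633 of its 5883 cells came from the 8-week-old Nfya-CKO library while 2866 of the 3265 Sertoli cells came from 11 dpp and only 2 from Cre/+. Age, genotype and cell type therefore cannot be told apart in this comparison. With a pseudocount of 1 instead of 0.1, which lowers every ratio, 2 members (F11r and Cldn11) rather than 8 passed 2-fold, where 1.45% of genes did.

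Against undiff. SpG, 6 of the 8 members rated were at least 2-fold higher in Sertoli cells and none was lower, where 12.1% of 13076 genes were higher and 20.2% lower. The median log2 ratio was 1.74 over the members and -0.34 over all genes. Cldn11 with 4.18, Gja1 with 3.70 and Jam2 with 3.59 led, then came Cdh2 with 1.91, F11r with 1.56, and Ocln was 2.38-fold higher on the same scale. Jam3 (0.68) and Tjp1 (0.34) were less than 2-fold apart. The 11 dpp library gave 2866 of the 3265 Sertoli cells but 646 of the 1292 undiff. SpG, so age and cell type cannot be fully told apart here. At 4-fold, Cldn11, Gja1 and Jam2 were left, 3 members, where 4.34% of genes were higher.

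**Figure D3:**
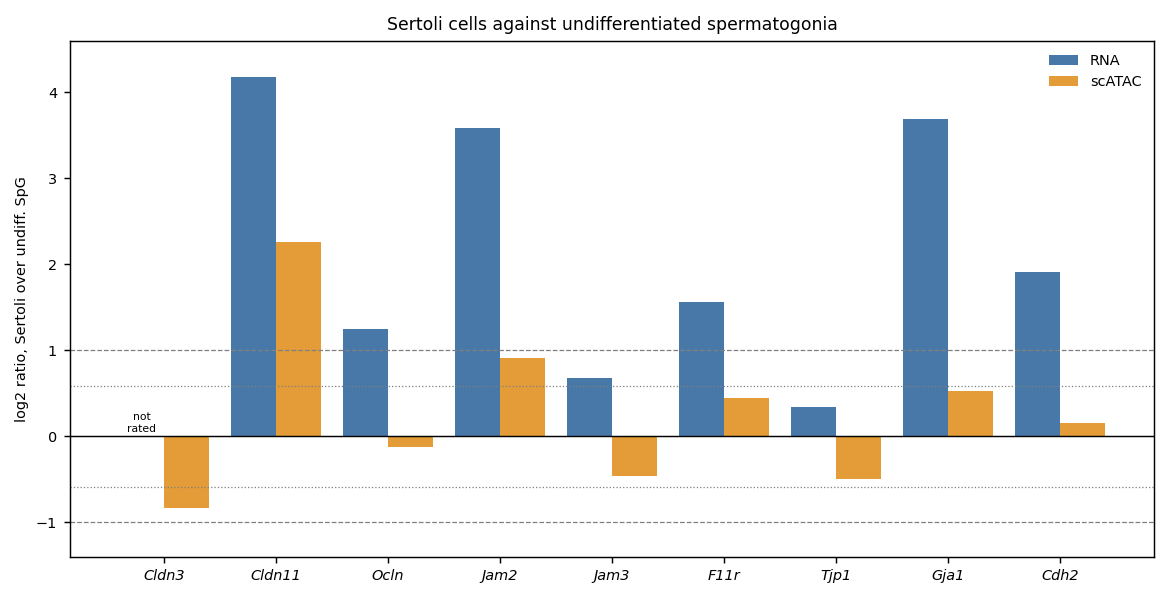
log2 ratio of Sertoli cells over undiff. SpG for each junction gene in RNA (blue, value + 0.1) and scATAC-seq (orange, value + 1), with dashed lines at 2-fold and dotted lines at 1.5-fold. Cldn11 is the furthest from 0 in both assays, at 4.18 and 2.26, while Tjp1 and Jam3 point up in RNA and down in scATAC-seq, as does Ocln on this scale but not when the ratios are centred or mitochondrial genes left out.

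Chromatin signal over the genes was then read from the scATAC-seq matrix, scaled to 1000000 per population. The study's methods define promoter accessibility by coverage around the start site, but the sources used here do not say whether this matrix was made that way, so a value is given as the signal assigned to the gene. Cldn11, F11r and Gja1 had their highest signal in Sertoli cells, whereas the other 6 members peaked elsewhere.

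**Figure D4:**
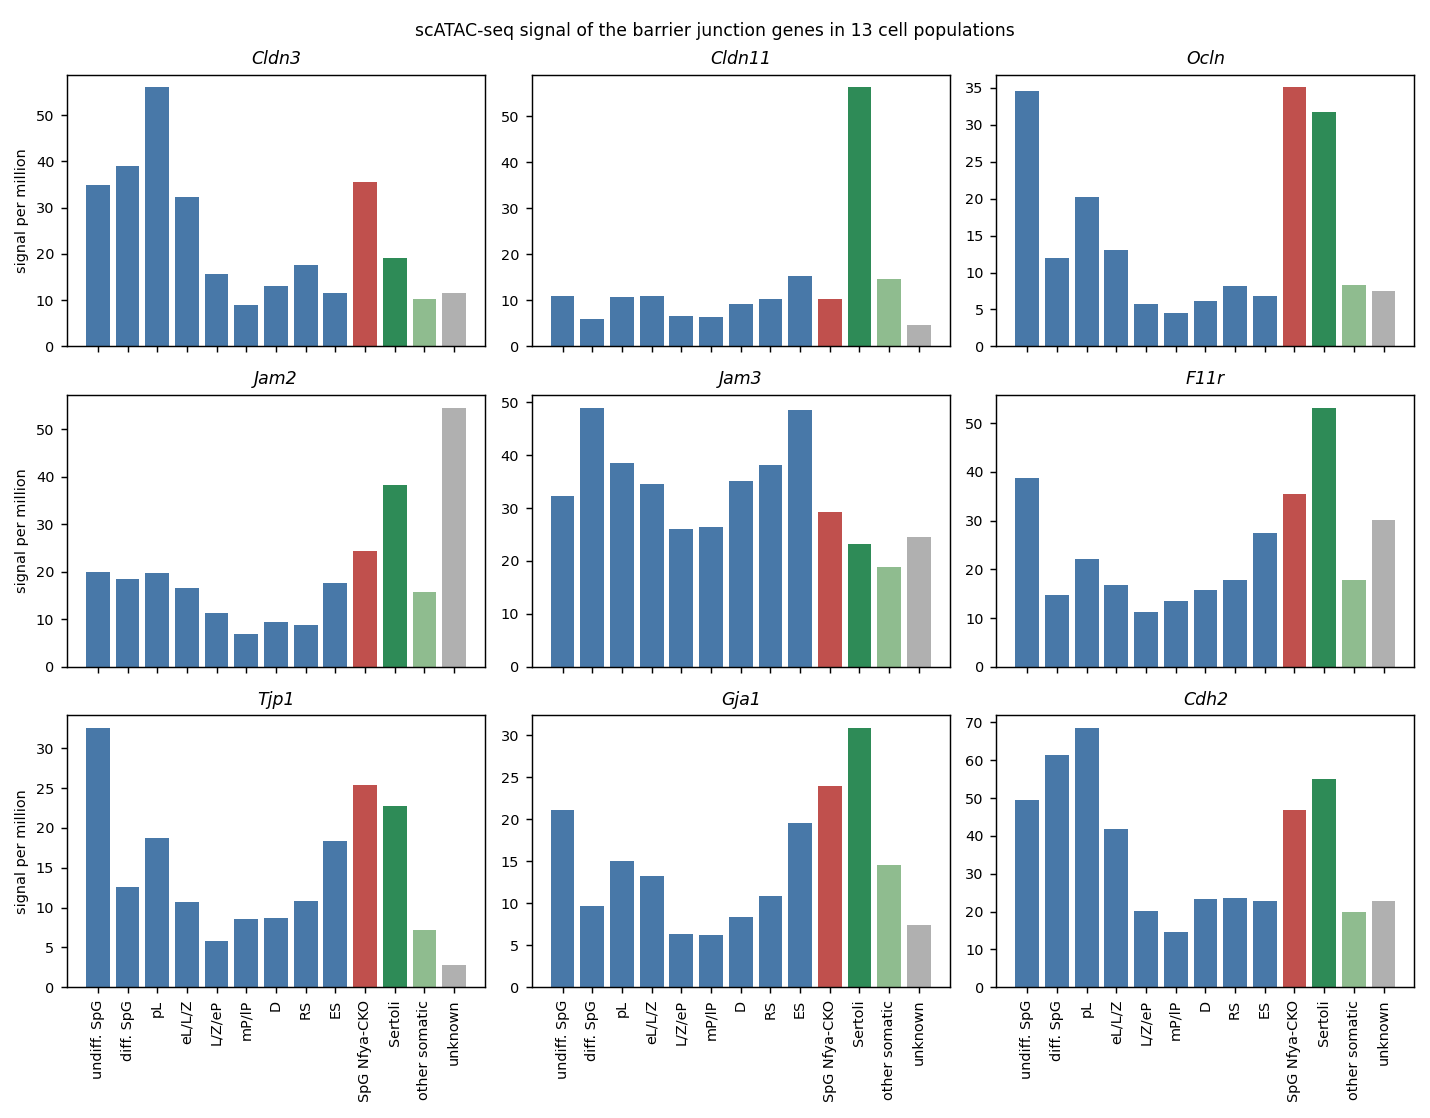
scATAC-seq signal of each junction gene (vertical axis, signal scaled to 1000000 per population, a separate scale from 0 in each panel) in the 13 populations, 1 bar per population without error bars. Cldn11 stands alone in Sertoli cells at 56.2, Cldn3 and Cdh2 peak in pL at 56.0 and 68.5, and Tjp1 and Ocln in undiff. SpG, at 32.5 and 34.5, are above Sertoli cells, at 22.7 and 31.7.

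The Cldn11 signal was 56.2 in Sertoli cells, 15.3 in ES, 14.5 in other somatic cells and 4.56 in the population named unknown. In all other populations it lay between 5.90 in diff. SpG and 10.9 in undiff. SpG, with 10.3 in the spermatogonia labelled Nfya-CKO. No other member had so large a step between Sertoli cells and the highest germ cell population, here 3.66-fold. That population, ES, had only 124 cells with both assays, a limit on every ES signal given here. For Gja1 the order was 30.8 in Sertoli cells, 24.0 in the spermatogonia labelled Nfya-CKO, 21.1 in undiff. SpG, 19.6 in ES, 15.1 in pL and 14.5 in other somatic cells, down to 6.20 in mP/lP. Gja1, whose RNA in undiff. SpG was 5.46% of the Sertoli level, thus had 68.4% of the Sertoli signal there.

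F11r had 53.1 in Sertoli cells, 38.8 in undiff. SpG, 35.5 in the spermatogonia labelled Nfya-CKO, 30.1 in the population named unknown and 27.5 in ES. Signal was 14.7 in diff. SpG, 22.1 in pL and lowest in L/Z/eP at 11.2. These steps run the same way as its RNA, which was high in undiff. SpG, low in diff. SpG and higher again in pL. Ocln showed 34.5 in undiff. SpG, 35.0 in the spermatogonia labelled Nfya-CKO and 31.7 in Sertoli cells, then 20.2 in pL, 13.1 in eL/L/Z and 11.9 in diff. SpG, and all other populations were at 8.32 or less. Tjp1 had 32.5 in undiff. SpG, 25.4 in the spermatogonia labelled Nfya-CKO, 22.7 in Sertoli cells, 18.8 in pL and 18.3 in ES, with 12.6 in diff. SpG and 2.78 in the population named unknown. The population named unknown was thus the lowest in Tjp1 signal and the second highest in Tjp1 RNA, over only 54 cells with both assays.

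Jam2 was highest in the population named unknown at 54.5, ahead of Sertoli cells at 38.3, the spermatogonia labelled Nfya-CKO at 24.3 and undiff. SpG at 19.9, and lowest in mP/lP at 6.85. The 2 populations with the most Jam2 RNA were hence also those with the most signal, in the opposite order. Jam3 differed from all others in that its signal was lower in Sertoli cells, 23.2, than in each of the 9 control germ cell populations, from 26 in L/Z/eP to 48.5 in ES and 48.9 in diff. SpG. Cldn3 had 56.0 in pL, 39.1 in diff. SpG, 35.6 in the spermatogonia labelled Nfya-CKO, 35.0 in undiff. SpG and 32.2 in eL/L/Z, against 19.2 in Sertoli cells. Cdh2 followed the same course through the germ line, with 49.5 in undiff. SpG, 61.4 in diff. SpG, 68.5 in pL, 41.9 in eL/L/Z and 20.2 in L/Z/eP, and Sertoli cells had 55.1. The pL peak of Cdh2 was shared by both assays within the control germ cells, whereas Cldn3 RNA in pL was only 0.0255.

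By the ratio of Sertoli cells to undiff. SpG, 2 of the 9 members (Cldn11, log2 ratio 2.26, and Jam2, 0.91) were at least 1.5-fold higher in scATAC-seq and 1 (Cldn3, -0.84) was lower, where 5.16% of 30236 genes were higher and 30.6% lower. All genes together lay at a median of -0.30, and the members at 0.15. With the ratios centred on that median, 4 members were higher and none lower (10% and 19.9% of genes), since Gja1 and F11r then also passed. Without the mitochondrial genes in the scale the counts were again 4 and none (9.35% and 27.6%). Ocln changed direction with the scale, from -0.12 to 0.18 when centred and 0.15 without mitochondrial genes, while Tjp1 (-0.50) and Jam3 (-0.46) stayed below 0 at -0.20 and -0.16 when centred.

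Across the 13 populations, log2 RNA and log2 scATAC-seq values of a member had a Pearson r of 0.82 for F11r, 0.76 for Cldn11, 0.68 for Jam2, 0.63 for Ocln, 0.49 for Gja1, 0.44 for Cdh2, 0.43 for Cldn3, 0.22 for Tjp1 and 0.04 for Jam3. The 13 points share libraries and cells, and the values are given as a description. The median over the 9 members was 0.49, beside 0.32 over 15246 genes in both matrices. Within the 9 control germ cell populations, r was highest for Ocln at 0.80, then 0.77 for F11r, 0.70 for Cldn11 and 0.69 for Tjp1. Jam2 and Jam3 were lowest there, both at 0.23. Over all 13 populations, Jam3 thus had RNA levels and signals that hardly ran together, and F11r and Cldn11 the closest pairs.

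Among the 36 pairs of members, RNA profiles over the 13 populations (log2 of value + 0.1) were most alike for Ocln and F11r, with a Pearson r of 0.98, then for Jam2 and Gja1 (0.97), Cldn11 and Gja1 (0.95) and Ocln and Tjp1 (0.93). Cldn3 and Jam2 were the least alike, at -0.33. The closest genes of the whole matrix were Dusp6 for both F11r (0.99) and Ocln (0.99), Clec12b, Axl and Tmem184a for Cldn11 (each 0.99), and Kitl (0.99), Edn1 (0.99) and Rnd3 (0.98) for Jam2. For Gja1 they were Masp1, Spock2 and Hspb1 (each 0.99), for Tjp1 Pitpnc1 (0.99), Itga6 (0.96) and Klf3 (0.95), for Jam3 4732491K20Rik (0.96), Gm27003 (0.95) and Fgf13 (0.94), and for Cdh2 Lysmd3 (0.93), Dcbld2 (0.92) and Alcam (0.92). Ocln and F11r had each other second, followed by Tmem229b (0.97) for Ocln and Zfp395 (0.98) for F11r, and Cldn3, below the minimum mean, had Fam109a (0.90), Sfrp1 (0.88) and Flnc (0.87). These likenesses rest on 13 pooled points in which Sertoli cells often stand far from the rest.

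From pL to eL/L/Z, the steps at which spermatocytes pass the barrier, none of the 8 members rated was 2-fold higher or lower, where 5.17% of 12986 genes were higher in eL/L/Z and 0.693% lower. Cldn11 (1.41 in pL, 2.65 in eL/L/Z) had a log2 ratio of 0.86, Gja1 0.74, Jam2 0.57 and F11r 0.51, and the median marker of the Sertoli list, over 18 genes, had 0.86. The pL cells came mainly from younger mice, with 1045 of 1761 from 11 dpp and 38 from 25 dpp, and of the 5705 eL/L/Z cells 1353 were from 11 dpp and 2431 from 25 dpp, so age and step cannot be told apart here. Cdh2 (0.960 and 0.725) was the lowest member at -0.36, and Jam3 at -0.01 was level. At 1.5-fold, Cldn11 and Gja1 passed, 2 members, where 13.7% of genes did.

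The comparison with Nfya-CKO shares its control, undiff. SpG, with that of Sertoli cells above. In the spermatogonia labelled Nfya-CKO, 1 of the 8 members rated, F11r, was at least 2-fold lower than in undiff. SpG and none was higher, where 3.40% of 13954 genes were lower and 4.76% higher. F11r had 1.48 against 3.70, a log2 ratio of -1.27. With a pseudocount of 1 its ratio was -0.93, short of 2-fold. Ocln, with 0.272 against 0.518, had -0.73, Cdh2 (0.257 against 0.409) -0.51 and Tjp1 (2.38 against 2.62) -0.14. On the other side stood Cldn11 (1.47 against 0.787) with 0.83, Gja1 (0.377 against 0.223) with 0.56, Jam2 (0.210 against 0.125) with 0.46 and Jam3 (1.24 against 0.957) with 0.34. The members' median was 0.10, beside 0.04 over all genes.

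**Figure D5:**
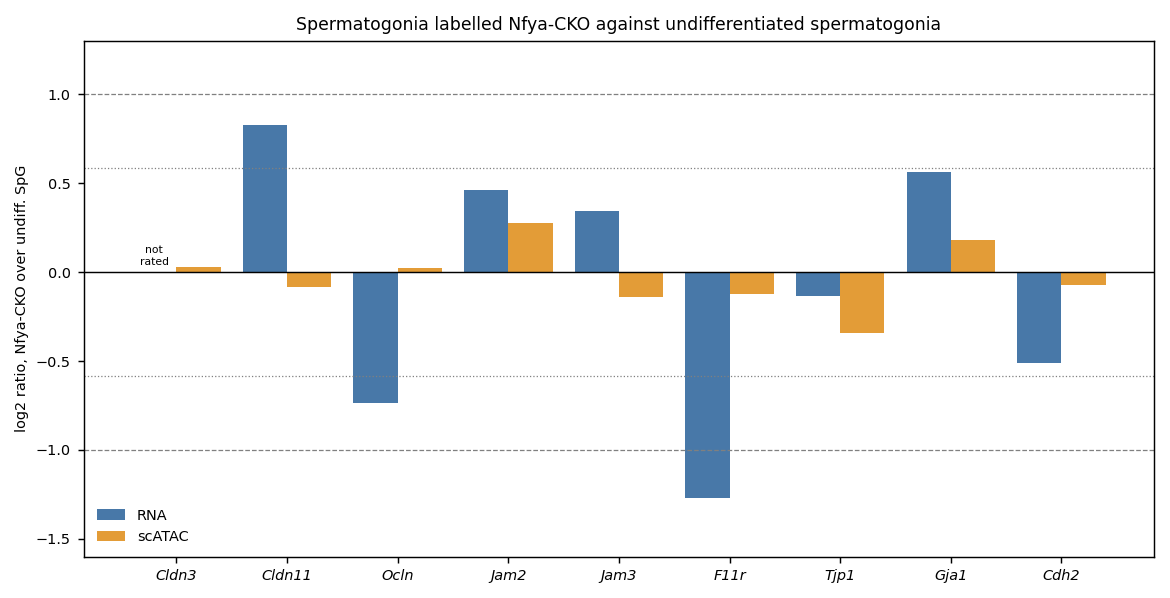
log2 ratio of the spermatogonia labelled Nfya-CKO over undiff. SpG for each junction gene in RNA (blue, value + 0.1) and scATAC-seq (orange, value + 1), with dashed lines at 2-fold and dotted lines at 1.5-fold. F11r is the only bar past the 2-fold line, at -1.27 in RNA, and its scATAC-seq bar stands at -0.12.

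All 491 of these cells came from 8-week-old mice, whereas of the 1292 undiff. SpG 646 were from 11 dpp, 262 from 17 dpp, 280 from 25 dpp and only 102 from 8-week-old Cre/+ mice, so age and genotype cannot be told apart in this comparison.

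The order of F11r depended on the control population, and diff. SpG came mainly from the adult control, with 783 of 927 cells from Cre/+. Against diff. SpG (0.386) in place of undiff. SpG, its log2 ratio was 1.70, on the opposite side, and 5 members were higher and none lower (7.44% and 10.9% of genes). Against the mean of both it was -0.45. The level of F11r in the spermatogonia labelled Nfya-CKO thus lay between those of undiff. and diff. SpG, as did that of Ocln (0.518, 0.272 and 0.0826) and of Tjp1 (2.62, 2.38 and 1.08).

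Transcripts of other cells were also higher in these 491 spermatogonia. Their Leydig markers summed to 51.5 (8 of 8 measured), against 0.249 in undiff. SpG, with Insl3 at 39.8 and 0.0640, and their Sertoli markers to 37.9 (18 of 18 measured), against 9.87, with Clu at 22.8 and 2.50. Of the 16 Sertoli markers rated, 8 were at least 2-fold higher and none lower, and the median marker had a log2 ratio of 0.97, beside 0.83 for Cldn11. The defining Sertoli gene Sox9 had 0.820 against 0.531, and the germ cell markers summed to 12.7 against 21.8. The part of these transcripts in the members' values was not tested.

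In scATAC-seq none of the 9 members was 1.5-fold apart between the spermatogonia labelled Nfya-CKO and undiff. SpG, where 9.63% of 29952 genes were higher and 5.72% lower. F11r had 35.5 against 38.8, a log2 ratio of -0.12, Ocln 35.0 against 34.5 and Cldn11 10.3 against 10.9. The furthest from 0 were Tjp1 (25.4 against 32.5) at -0.34 and Jam2 (24.3 against 19.9) at 0.27. Mean TSS enrichment, the coverage at start sites over that of flanking windows, was 7.99 in the spermatogonia labelled Nfya-CKO and 12.7 in undiff. SpG. What this difference in quality does to the ratios was not tested.

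Other junction genes, from lists of the same pathway, numbered 94, of which 90 were in the scRNA-seq matrix. Of 19 other claudins in the matrix only 2 were abundant enough to be rated between Sertoli cells and undiff. SpG, and neither was 2-fold apart. Cldn12, named for its UMI level in Sertoli cells, the highest of this list without scaling by length, had 0.522 there and 0.778 in undiff. SpG. Of the other tight junction membrane proteins 3 of 6 were higher in Sertoli cells and 2 lower, led by Lsr (3.91 against 0.348) and Ildr2 (2.39 against 0.38), both angulins of tricellular junctions. Among scaffold and polarity genes 6 of 15 were higher and 2 lower, with Cgn, which encodes cingulin, at 4.77 against 0.748.

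Adherens junction and ectoplasmic specialization genes gave 8 of 16 higher and 2 lower, with Ctnna2, an alpha-catenin that binds the cadherin complex of Cdh2, at 13.5 against 1.11, Nectin2 at 6.04 against 0.393 and Vcl, which encodes vinculin, at 4.95 against 0.882. Connexins other than Gja1, listed with pannexins, went both ways, with 1 of 5 higher and 1 lower. Gjc1, the gene of connexin 45, was the reverse of Gja1, with 0.628 in Sertoli cells, 3.05 in undiff. SpG and 4.12 in pL. Desmosome genes had 2 rated and none apart. Over these 6 lists 18 of 46 genes rated were higher in Sertoli cells and 7 lower, beside 12.1% and 20.2% of all genes and beside the 6 of 8 members.

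Depth and overlap set the limits of these values. The 5 scRNA-seq libraries held from 30227701 to 64967271 UMIs, with a median of 1446.5 to 7603 per cell, and the level of 1 UMI in a cell of median depth ran from 0.000281 in Sertoli cells to 0.00327 in ES and 0.0213 in the 99 cells of the population named unknown. Of the 39674 scRNA-seq barcodes, 5030, or 12.7%, were found in more than 1 library, and of the 342825 scATAC-seq barcodes 982, or 0.286%. No value by library can be taken from the pooled matrices, so the members could not be followed from 11 dpp to the adult within a population.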

How the data were processed

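Testis nuclei of 5 conditions (wild type at 11, 17 or 25 dpp, and Cre/+ or Nfya-CKO at 8 weeks) were profiled with the BD Rhapsody system, with 1 scRNA-seq and 1 scATAC-seq library each. For scRNA-seq, the authors aligned reads to mm10 with STAR (2.7.10b), collapsed them by UMI and coordinate, removed cells with few genes or much mitochondrial RNA with Seurat (5.2.1) and doublets with DoubletFinder, and named the populations. The authors placed scATAC-seq fragments with BWA (0.7.12), corrected their ends for transposase insertion and filtered cells with ArchR (1.0.3). Tools and versions are from the submitters' processing notes.

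The authors deposited the UMI count and the fragment count of each cell, without normalization, with its library and population, and the TSS enrichment, a ratio of coverage at start sites over flanking windows. The 2 deposited gene matrices hold natural log values, the log of 1 plus a mean that sums to 10000 per population. In RNA the smallest value above 0 equals 1 UMI in the deepest cell in 11 of the 13 populations, and lies above it in mP/lP and D, so the values were read as means of rates over cells. Another 21 columns of these tables were left unused.

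Matrix values were turned back with exp(value) - 1 in Python 3.11.15 (numpy 2.4.6, pandas 2.3.3, scipy 1.17.1), and scATAC-seq values scaled to 1000000 per population, mitochondrial genes included. RNA was compared as the log2 ratio of value + 0.1 among genes whose mean reached 0.05, called rated in the text, at 2-fold, and scATAC-seq as the log2 ratio of value + 1 at 1.5-fold. The script was tested on simulated data. With 1 library per condition no test was possible, as cells and genes do not replicate a condition. Intervals of shares are exact Clopper-Pearson 95% intervals and cover counting error only. Named genes are the 9 members, at most 3 genes of each junction list with the highest Sertoli RNA, the 3 genes most like each member, and markers beside a result. Cldn5, Esam and Cldn14 fall outside this rule and were named after their values were seen. The members and lists were chosen with earlier results of these data known. Promoter windows and coordinates are RefSeq's for GRCm38.p6, the build of mm10. Protein sequences and the bulk experiments of the study were not used here. Alternatives covered pseudocounts, filters, fold limits, scaling, the control population and the populations included.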

Additional observations from a re-analysis of the deposited data

How the results depend on the processing

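The values rest on 1 library per condition, pooled by population, so no sample could be left out in turn. No paired analysis was possible because each condition has 1 library per assay. Depth limits Cldn3 and the population of 99 cells, where 1 UMI in a cell of median depth is worth 0.0213 UMIs per 10000. Of 90 alternative values of the counts and summary results, 68 stayed within 1.5-fold of the reported one, and of 372 values of single genes 350 moved little, although uncalled ratios near 0 could change sign, as that of Ocln in scATAC-seq did. Leaving out populations other than Sertoli cells could not alter that 8 members peaked there, and says nothing of stability.

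Members higher in Sertoli than in other somatic cells numbered 8, 2 with a pseudocount of 1 and 1 at 4-fold (1.45% and 0.584% of all genes). Against undiff. SpG 6 were higher, and 3 at 4-fold (4.34%). For Nfya-CKO spermatogonia 0 were higher and 1 lower. A pseudocount of 1 left 0 lower (0.322%), with F11r at -0.93. At 4-fold 0 were lower (0.215%), and 1.5-fold gave 1 higher and 2 lower (14.5% and 11.3%). With diff. SpG as control 5 were higher and 0 lower (7.44% and 10.9%), F11r reversing from -1.27 to 1.70, and with the mean of both spermatogonia 1 was higher and 0 lower (3.39% and 6.61%). From pL to eL/L/Z 0 were higher, and 2 at 1.5-fold (13.7%).

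In scATAC-seq 2 members were higher in Sertoli cells than in undiff. SpG and 1 lower. Without mitochondrial genes in the scale, and with ratios centred on the median of all genes, 4 were higher and 0 lower (9.35% and 27.6%, and 10% and 19.9%). At 2-fold 1 was higher and 0 lower (2.34% and 17.0%), and at the lowest fold limit tried 4 and 3 (9.12% and 48.2%). For Nfya-CKO 0 were lower, and 1 at that lowest limit (21.3%). Of the members in undiff. SpG, 3 stood above all Sertoli markers (86.3% of all genes) and 6 above the markers at least as high in Sertoli as in other somatic cells (97.5%), an alternative chosen after seeing the data. Fewer members pass a higher fold limit or a larger pseudocount by construction. In the other alternatives the cause was not tested.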

Other observations

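Several junction genes outside the barrier set had their highest level in cells other than Sertoli cells, and were picked after their values had been seen. Cldn5, the main claudin of endothelial tight junctions, was at 17.4 UMIs per 10000 in the population named unknown and at most 0.0553 in the other 12 populations, and Esam, an endothelial adhesion molecule related to the JAM proteins, was at 8.53 and at most 0.0503. The same 99 cells had 7.26 of the endothelial cadherin Cdh5 and 5.31 of Pecam1. They were also second to Sertoli cells in Ocln, Tjp1 and Jam2 RNA, with 0.549, 3.06 and 1.67.

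Cldn14, a claudin known from the inner ear, was at 0.806 in round spermatids, 0.489 in ES, 0.271 in D, 0.172 in diff. SpG and 0.126 in mP/lP, beside 0.0339 in undiff. SpG and 0.00987 in Sertoli cells. Most cells of both RS and diff. SpG came from the Cre/+ library, 5639 of 7325 and 783 of 927. The Sertoli markers were at a median of 4.13% of their Sertoli level in RS. Cldn4 was at 0.197 in the population named unknown and 0.159 in other somatic cells, and at most 0.0459 in any other population.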
